A study of Mus musculus with 18 samples.

Results

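The Reg family lectins measured here were Reg1, Reg3a, Reg3b, Reg3g and Reg4, taken as the probe sets whose platform annotation named exactly 1 of these genes. Each gene had a single probe set on the array, so the 5 genes were read by 5 of the 35556 probe sets and made up 5 of the 19938 genes tested. Expression was measured on 1-colour microarrays in small intestinal crypt cells of 4-month-old C57Bl6/J mice with the genotype FltpZV/+, that is, with the Fltp-Venus reporter of the gene Flattop on 1 allele. The cells were separated by sorting on reporter fluorescence into a reporter-high, a reporter-low and a reporter-negative gate, and all gates therefore came from animals of the same genotype. There were 2 arrays per gate, with the RNA on each from 2 pooled animals. Whether equal replicate numbers mark the same animals is not stated in the labels, so the p-values measure only the spread between these arrays. A further 12 samples of a Flattop lineage-tracing cross were not analysed here.

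Reg genes encode small secreted proteins built around a C-type lectin domain. In the gut, Reg3b and Reg3g are bactericidal lectins that keep bacteria away from the epithelial surface, and their transcription rises with microbial signals through MyD88 and with interleukin-22 through STAT3. Reg1 is known from regenerating pancreas and intestine, and Reg4 marks enteroendocrine cells of the small intestine and deep crypt secretory cells of the colon.

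Reg3b, Reg3d, Reg3a, Reg2, Reg1 and Reg3g lie in this order next to each other on mouse chromosome 6, with only a pseudogene between Reg1 and Reg3g, in the GRCm38.p6 annotation of RefSeq. Reg4 lies on chromosome 3. The 250 bases before the annotated start site of each of the 5 genes are shown. Of the 5 genes, Reg1, Reg3a, Reg3b and Reg3g read higher on replicate 1 in every gate, and Reg4 in all but the low gate. Reg2 and Reg3d, both dim, read higher on replicate 1 only in the high gate. Whether the position of the genes or these sequences have a part in this was not tested. The sequences are from RefSeq on GRCm38.p6, and all 5 genes had an entry. They run 5′ to 3′ on the strand of the gene. Capitals mark matches, on the strand printed, to the TATA box letters TATAAA and to the STAT-binding letters TTCNNNGAA, both searched on both strands.
Reg1, chr6:78425733-78425982, plus strand: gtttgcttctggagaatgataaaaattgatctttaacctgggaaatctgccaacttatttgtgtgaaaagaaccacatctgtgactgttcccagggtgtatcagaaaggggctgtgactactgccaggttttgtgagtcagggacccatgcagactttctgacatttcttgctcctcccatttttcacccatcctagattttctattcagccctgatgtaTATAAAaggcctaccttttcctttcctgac
Reg3a, chr6:78380459-78380708, plus strand: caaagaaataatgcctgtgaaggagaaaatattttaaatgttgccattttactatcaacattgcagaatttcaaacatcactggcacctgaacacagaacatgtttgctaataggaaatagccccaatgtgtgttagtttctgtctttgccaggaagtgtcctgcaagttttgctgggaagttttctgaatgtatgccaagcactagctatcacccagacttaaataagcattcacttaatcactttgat
Reg3b, chr6:78370635-78370884, plus strand: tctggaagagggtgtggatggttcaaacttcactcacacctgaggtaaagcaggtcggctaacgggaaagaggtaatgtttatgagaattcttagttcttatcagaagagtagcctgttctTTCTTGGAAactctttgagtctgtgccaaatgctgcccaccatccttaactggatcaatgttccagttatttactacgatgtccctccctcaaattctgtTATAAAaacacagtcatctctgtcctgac
Reg3g, chr6:78468875-78469124, minus strand: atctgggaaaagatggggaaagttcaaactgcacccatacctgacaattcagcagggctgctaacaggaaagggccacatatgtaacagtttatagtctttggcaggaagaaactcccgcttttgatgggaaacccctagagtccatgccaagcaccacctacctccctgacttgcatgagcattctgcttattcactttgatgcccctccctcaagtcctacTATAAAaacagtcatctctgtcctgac
Reg4, chr3:98221906-98222155, plus strand: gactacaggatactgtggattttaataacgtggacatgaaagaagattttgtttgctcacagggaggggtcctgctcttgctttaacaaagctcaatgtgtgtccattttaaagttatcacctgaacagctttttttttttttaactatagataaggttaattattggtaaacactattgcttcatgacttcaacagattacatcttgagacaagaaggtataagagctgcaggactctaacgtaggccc
The letters TATAAA stood at bases -30 to -25 before the start of Reg1, -29 to -24 before Reg3b and -27 to -22 before Reg3g, and were not found in the windows of Reg3a and Reg4 on either strand. Reg3g had a second match on the opposite strand at bases -161 to -156. Of the 32851 RefSeq promoter windows of the same length, 12.4% held them. The STAT letters occurred at bases -129 to -121 before Reg3b and in no other of the 5 windows, against 7.02% of all windows. The matches did not overlap. The windows of Reg3b and Reg3g were identical at 68.4% of aligned positions in a global alignment, and the other 9 pairs at 44.9% to 49.5%. Cross-hybridisation between probe sets of related Reg genes was not tested.

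The median of the deposited values lay between 4.54 and 4.74 on the log2 scale over the 6 arrays. A background level of 4.23 was set as the 95th percentile of 1203 olfactory, vomeronasal and trace amine receptor genes. All 7 epithelial markers (Epcam, Cdh1, Vil1, Krt8, Krt18, Krt20 and Cldn7) were above it on every array, as the crypt label asks, but so were all 7 measured T cell genes. The summed signal of the T cell genes was 10.08 and 10.28 on the log2 scale in the high gate, 13.52 and 13.54 in the low gate and 11.91 and 12.06 in the negative gate. In a sorted bulk sample, fewer cells of a type and less RNA per cell cannot be told apart, and the part of other cell types in the Reg values was not tested. Across all genes the high pair correlated less closely (Pearson r = 0.946) than the low pair (0.975) and the negative pair (0.981). All values are limited in precision by the small number of arrays.

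The family split by gate. Reg4 was higher in both reporter-positive gates than in the negative gate, and Reg3a was lower in the low gate. Reg1, Reg3b and Reg3g showed no called difference in the main fit, which had no term for the replicate number. In low against negative cells, 2 of 5 Reg genes passed (limma, Benjamini-Hochberg adjusted p under 0.05), where 5.96% of all genes passed. They were 1 higher and 1 lower gene, beside 3.42% of all genes higher and 2.54% lower, and 2 of 5 had an unadjusted p under 0.05, beside 18.5% of all genes. For high against negative cells, 1 of 5 passed, and it was higher, where 4.71% of all genes passed, 1.36% higher and 3.35% lower. An unadjusted p under 0.05 was reached there by 2 of 5 Reg genes and 22.2% of all genes. Between high and low cells 0 of 5 passed in limma and 0 had an unadjusted p under 0.05, where 4.91% (1.01% higher and 3.89% lower) and 22.6% of all genes did. The median difference of the 5 genes was -1.27 in low against negative cells, beside -0.03 over all genes, -0.56 beside 0.10 in high against negative cells, and 0.60 beside 0.13 in high against low cells. The comparisons with the negative gate share its 2 arrays. Levels of different genes were read by different probe sets and are not compared.

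**Figure D1:**
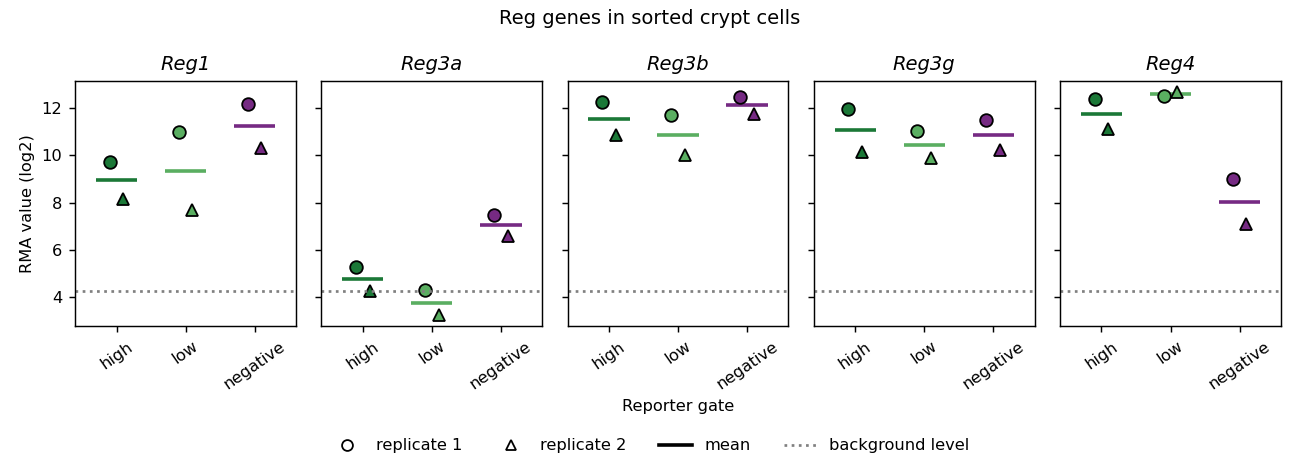
RMA values (log2, y axis) of the 5 Reg genes on each of the 6 arrays, by reporter gate (x axis). Circles are replicate 1, triangles replicate 2, bars the mean of the 2 arrays, and the dotted line the background level of 4.23. Reg4 was lowest in the negative gate and Reg3a highest there, and circles lie above triangles everywhere except for Reg4 in the low gate.

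Reg4 differed most from the negative gate of the 5 genes. It read 12.38 and 11.12 on the 2 high arrays, 12.53 and 12.68 on the 2 low arrays, and 9.0 and 7.08 on the 2 negative arrays. Both positive gates lay above both negative arrays without overlap. Reg4 was 23.7-fold higher in low than in negative cells, a difference of 4.56 ± 0.64 on the log2 scale (SE; limma adjusted p = 0.0115). It was 13.1-fold higher in high than in negative cells, by 3.71 ± 0.64 (adjusted p = 0.0294). The order of the gates was low, high and negative. The neighbours low and high did not differ beyond their spread: high minus low was -0.86 ± 0.64 (limma adjusted p = 0.437; 95% interval -2.39 to 0.67), although the 2 gates did not overlap, with a gap of 0.16.

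The Reg4 calls were lost in several fits without 1 array. Such fits leave 1 gate with a single array and have less to measure the spread with. Calls over all genes were also fewer in both comparisons without any 1 negative or low array. For those arrays the losses therefore cannot tell dependence on 1 array from the smaller number of arrays. Without high replicate 1, calls over all genes in high against negative cells were more numerous, not fewer. The Reg4 difference was 3.08 in that fit. In low against negative cells the call was lost without negative replicate 2 (adjusted p = 0.0516), low replicate 1 (adjusted p = 0.0533) or low replicate 2 (adjusted p = 0.0688), while the difference stayed between 3.61 and 5.52. The call in high against negative cells was lost without negative replicate 1, negative replicate 2 or high replicate 1. It was also lost on the 4 arrays compared (limma adjusted p = 0.0548), a fit that leaving out either low array repeats. With array weights it was lost as well (limma adjusted p = 0.0543). The high minus negative difference stayed between 2.75 and 4.66 without 1 array.

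Paneth markers were higher in both gates in which Reg4 was higher. All 8 Paneth genes rose in low and in high cells against negative cells (limma adjusted p under 0.05). Dropping negative replicate 1 left 5 called in high cells and dropping negative replicate 2 left 4, while in low cells 6 or more stayed called whichever array was dropped. Their summed signal was 15.65 and 15.36 on the high arrays, 14.89 and 15.07 on the low arrays, and 12.48 and 12.13 on the negative arrays. All 10 enteroendocrine genes rose in low cells against negative cells (limma adjusted p under 0.05), and 4 of them (Neurod1, Cpe, Scg2 and Tph1) were at background on both negative arrays. For high against negative cells 0 of 10 were called in limma, and 8 had an unadjusted p under 0.05. The count there was 2 without high replicate 1, 4 without high replicate 2 and 3 among genes above background. The summed enteroendocrine signal was 10.60 and 9.68 on the high arrays, 14.59 and 14.74 on the low arrays, and 8.72 and 8.65 on the negative arrays. Both high arrays lay above both negative arrays in this signal, and below both low arrays. Goblet genes, the other secretory list, did not rise: 0 of 7 were called higher in limma, 1 of 7, Clca1, fell in both comparisons with negative cells, and 3 had an unadjusted p under 0.05 in each. The summed goblet signal was 14.75 and 14.50 on the high arrays, 14.11 and 14.24 on the low arrays, and 14.70 and 14.51 on the negative arrays. The part of these cell types in the Reg4 values was not tested.

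Reg3a showed the opposite order. Its protein is a secreted lectin of the Reg3 group. It read 5.25 and 4.25 on the high arrays, 4.27 and 3.23 on the low arrays, and 7.49 and 6.59 on the negative arrays. Both negative arrays lay above all arrays of the positive gates. Reg3a fell 9.75-fold in low cells against negative cells, by 3.29 ± 0.49 on the log2 scale (SE; limma adjusted p = 0.014). Between high and negative cells the difference was -2.29 ± 0.49, just outside the threshold (limma adjusted p = 0.051), the 95% interval being -3.46 to -1.12. It was called there with a trended prior (adjusted p = 0.0366) and among genes above background (adjusted p = 0.0335). It was also called with a term for the replicate number in the fit, the replicate block (SE 0.19, limma adjusted p = 0.00982). The labels do not say that the numbers pair the arrays. Without high replicate 1 the difference was -2.79. High and low, neighbours in the order, differed by 1.0 ± 0.49 (adjusted p = 0.279, or 0.0404 with the replicate block), and their arrays overlapped.

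Reg3a was dim in the low gate. Of the 2 low arrays 1 lay above the background level, at 4.27 against 4.23, so the 9.75-fold figure rests on values near the floor of the signal. With the background level at the 99th percentile of the receptor genes (4.98), neither low array was above it, and Reg3a would be known only to be lower by at least 2.06. The negative mean lay 2.81 above the background level of 4.23, which bounds the difference if the low gate is taken as at background. Dropping an array ended the low against negative call in 3 cases: negative replicate 1 (adjusted p = 0.11), negative replicate 2 (adjusted p = 0.0569) and low replicate 2 (adjusted p = 0.0743). Other transcripts high in the negative gate moved the same way. The plasma cell gene Jchain was above background on both negative arrays and on no low or high array. Mcpt1 and Mcpt2, which encode mast cell proteases, fell in both positive gates (limma adjusted p from 0.00903 to 0.0156). Mcpt1 was above background on only 1 array of each positive gate, and Mcpt2 on 1 high array and on both low arrays. The Mcpt1 and Mcpt2 calls did not hold in every fit without 1 array. These lists did not move as a whole: Jchain was the only called gene of 4 measured plasma cell genes, and of the 4 mast cell genes Kit rose, by 2.07 ± 0.22 in low cells (SE; limma adjusted p = 0.00447) and 2.47 ± 0.22 in high cells (adjusted p = 0.00641), while Cpa3 was at background in every gate. The summed mast cell signal was 9.06 and 8.76 on the high arrays, 8.75 and 8.51 on the low arrays, and 8.93 and 9.05 on the negative arrays. The summed plasma cell signal lay between 8.50 and 8.98 on all arrays. Kit was the brightest mast cell gene in the positive gates, at 8.94 and 8.55 on the high arrays and 8.38 and 8.31 on the low arrays. Xbp1 was the brightest plasma cell gene on every array, at 7.79 to 8.75. The sums therefore cannot show that these cells were equally present in all gates. Enterocyte genes were lower too: their median difference was -0.60 in low and -1.16 in high against negative cells, beside -0.03 and 0.10 over all genes. Of these 12 genes, 2 and 3 were called lower and 10 and 9 were not called. The part of any of these cell types in the Reg3a values was not tested.

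Reg1 had the widest spread within gates of the 5 genes. It read 9.74 and 8.13 on the high arrays, 11.01 and 7.67 on the low arrays, and 12.19 and 10.29 on the negative arrays. The low pair alone spanned 3.34 on the log2 scale, a 10.1-fold difference between arrays of the same gate. The high arrays lay below both negative arrays, while the low pair overlapped both other gates. High minus negative was -2.31 ± 1.14 (limma adjusted p = 0.287), and its 95% interval ran from -5.01 to 0.40. With the replicate block its SE was 0.42 and it was called (limma adjusted p = 0.0354). The low minus negative difference was -1.90 ± 1.14 (adjusted p = 0.484), and high minus low was -0.40 ± 1.14 (adjusted p = 0.839). No pair of neighbours in the order negative, low and high differed beyond the spread.

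Reg3b, the bactericidal lectin formerly called pancreatitis-associated protein, was bright in every gate. It read 12.27 and 10.85 on the high arrays, 11.71 and 9.99 on the low arrays, and 12.49 and 11.76 on the negative arrays. The low and negative pairs were separated by 0.04, and the high pair overlapped both. Low minus negative was -1.27 ± 0.66 (limma adjusted p = 0.393), and its 95% interval spanned -2.83 to 0.29. High minus negative was -0.56 ± 0.66 (adjusted p = 0.629) and high minus low 0.71 ± 0.66 (adjusted p = 0.527).

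Reg3g, a lectin active against Gram-positive bacteria, had the narrowest span of gate means. It read 11.96 and 10.15 on the high arrays, 11.02 and 9.90 on the low arrays, and 11.50 and 10.24 on the negative arrays, and all 3 pairs overlapped. Its gate means spanned 0.60 on the log2 scale, and replicate arrays of a gate differed by 1.12 to 1.80. High minus negative was 0.19 ± 0.69 (limma adjusted p = 0.887), low minus negative -0.41 ± 0.69 (adjusted p = 0.882) and high minus low 0.60 ± 0.69 (adjusted p = 0.611). The 95% interval of high minus negative ran from -1.45 to 1.83.

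Arrays of 2 gates were free of overlap for 3 of the 5 genes in low against negative cells (Reg3a, Reg3b and Reg4), where 51.5% of all genes were. The count was 3 in high against negative cells (Reg1, Reg3a and Reg4), where 55.2% of all genes were, and 1 in high against low cells (Reg4), where 55.8% were. These shares of all genes are large, so the counts say little about the Reg genes.

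**Figure D2:**
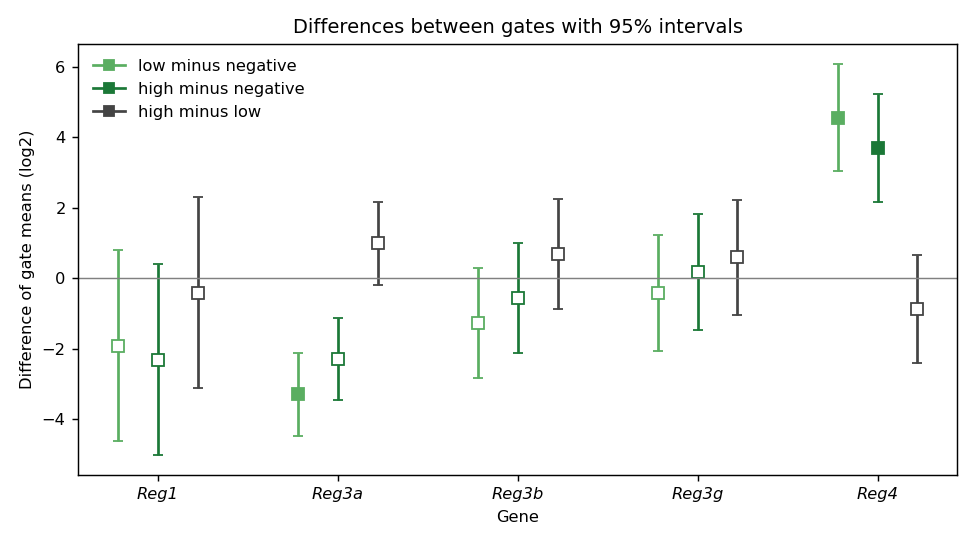
Differences of gate means (log2, y axis) for the 5 Reg genes (x axis) with 95% intervals from limma. Filled squares passed an adjusted p under 0.05 and open squares did not. Reg4 lies above 0 in both comparisons with the negative gate and Reg3a below 0 in both, with the high against negative value of Reg3a just outside the threshold (adjusted p = 0.051).

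The Reg genes also separated the arrays by replicate number. The array numbered 1 read higher than the array numbered 2 in 14 of the 15 pairs of a gene and a gate. The exception was Reg4 in the low gate, where the arrays differed by -0.15. The difference held in all 3 gates for 4 of 5 Reg genes, where 11.6% of all genes had replicate 1 higher in all gates and 17.1% had it lower. Averaged over the gates, replicate 1 exceeded replicate 2 by 2.28 for Reg1, 0.99 for Reg3a, 1.29 for Reg3b, 1.39 for Reg3g and 1.01 for Reg4 on the log2 scale. Ordered by this mean among 12331 genes above background, predicted genes left out, Reg1 stood at place 5, Reg3g at 27, Reg3b at 35, Reg4 at 86 and Reg3a at 95. This pattern was noticed in the data and is given as a description.

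The share of the variation that lay between gates differed among the 5 genes. Differences between gates held 89.9% of the sum of squares over the 6 arrays for Reg4 and 88.6% for Reg3a. They held 41.2% for Reg1, 37.0% for Reg3b and 10.9% for Reg3g, beside a median of 66.3% over genes above background. The difference between replicate numbers held 85.3% for Reg3g, 57.1% for Reg3b, 53.0% for Reg1, 11.4% for Reg3a and 5.83% for Reg4, beside a median of 7.37% over genes above background. For Reg3a 0.0431% was left over, so its 2 replicate series ran nearly parallel across the gates.

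**Figure D3:**
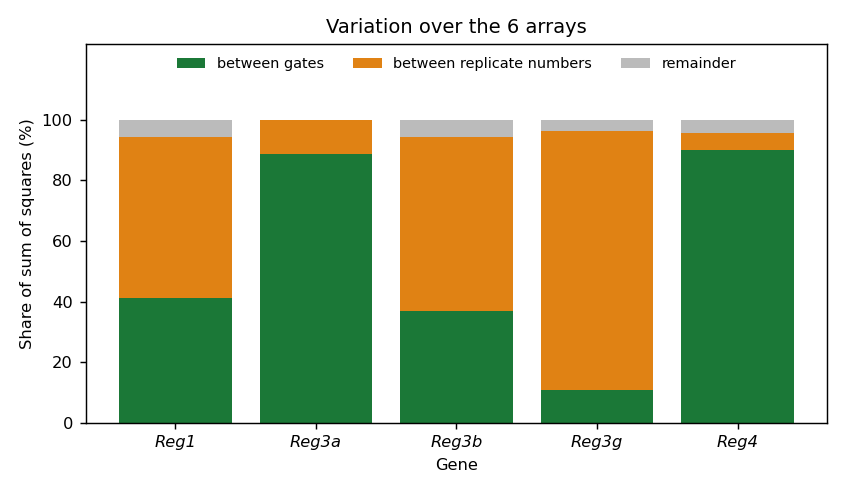
Share of the sum of squares over the 6 arrays (y axis, percent) that lies between gates (green), between replicate numbers (orange) and in the remainder (grey) for each Reg gene (x axis). Gates hold 89.9% for Reg4 and 88.6% for Reg3a, and replicate numbers hold 85.3% for Reg3g.

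Within each replicate number the gate differences could be read without the difference between numbers. Reg3a was lower in low than in negative cells by -3.21 at number 1 and -3.36 at number 2, and in high than in negative cells by -2.23 and -2.34. Reg1 was lower in high than in negative cells by -2.45 and -2.16, and in low cells by -1.18 and -2.62. Reg3b in low minus negative cells read -0.78 and -1.76, and Reg3g -0.48 and -0.34. Reg4 in low minus negative cells read 3.54 and 5.59, and in high minus negative cells 3.38 and 4.03. Each of these pairs had the same sign at both numbers, whereas Reg3g in high minus negative cells read 0.46 and -0.08 and Reg1 in high minus low cells -1.27 and 0.46. The labels do not say that a number marks shared animals.

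Some sex-linked transcripts also differed between the replicate numbers. Eif2s3y, a Y-linked gene chosen after its values were seen, read 5.95, 7.04 and 5.97 on the arrays numbered 1 of the high, low and negative gates, against 3.54, 3.46 and 3.77 on those numbered 2. It was above background on every array numbered 1 and on no array numbered 2, and it stood at place 1 in the order above. Kdm5d, also Y-linked, followed this less closely: it read 4.95, 5.13 and 4.66 on the arrays numbered 1, against 4.89, 4.19 and 4.15 on those numbered 2, so that it was above background on high replicate 2, and it stood at place 757. Xist, which is transcribed from the inactive X chromosome of females, read 8.39, 9.12 and 9.23 on the arrays numbered 1, against 9.73, 10.01 and 9.82 on those numbered 2. The part of the animals' sex in the Reg values was not tested.

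Enterocyte transcripts differed between the numbers too. The summed signal of the 12 enterocyte genes was 13.50 and 12.99 in the high gate, 14.05 and 13.24 in the low gate and 14.50 and 14.09 in the negative gate, for replicates 1 and 2 of each gate. Of these 12 genes, 8 had replicate 1 higher in all gates, and Alpi, the intestinal alkaline phosphatase of the brush border, stood at place 7 in the order. Enterocyte genes also differed between gates. Against negative cells, 2 of 12 fell in low cells and 3 of 12 in high cells (limma adjusted p under 0.05), beside 2.54% and 3.35% of all genes, and 4 and 9 had an unadjusted p under 0.05. Both counts were 0 without negative replicate 1 or negative replicate 2, and they were 1 without low replicate 1 and 0 without low replicate 2 in low cells, and 0 without high replicate 2 in high cells. For high cells, leaving out either low array gave 2. Over the alternatives other than leaving out 1 array, called enterocyte genes numbered 0 to 4 in low cells and 0 to 8 in high cells. The part of enterocytes in the Reg values was not tested.

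**Figure D4:**
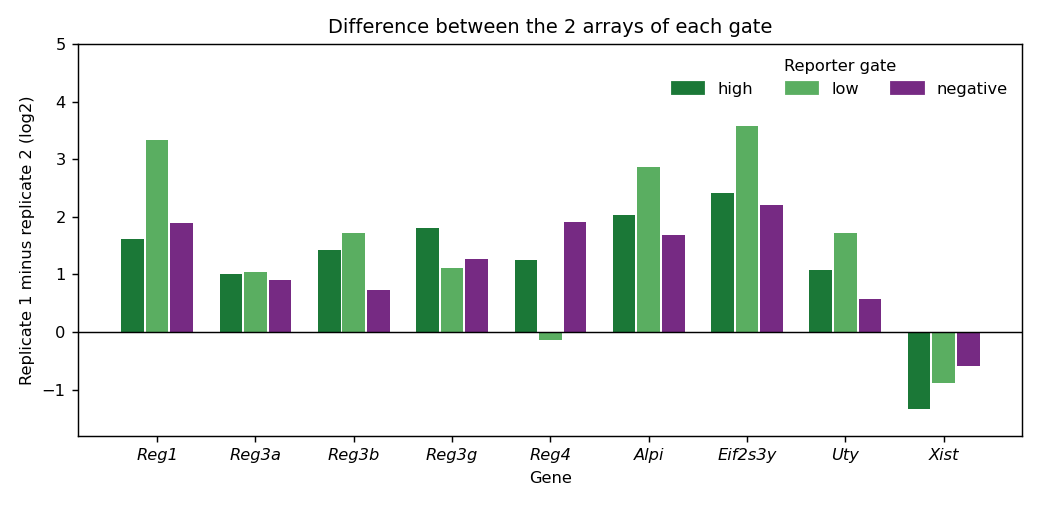
Replicate 1 minus replicate 2 (log2, y axis) in the high, low and negative gates for the 5 Reg genes, the enterocyte gene Alpi, the Y-linked genes Eif2s3y and Uty, and Xist (x axis). Bars are single differences between the 2 arrays of a gate. The Reg bars point up in 14 of 15 cases, those of Eif2s3y in all gates, and those of Xist down.

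Within each gate, Reg1, Reg3a, Reg3b and Reg3g differed between the 2 arrays in the same direction, as given above. After each gate's mean was removed, Reg3a and Reg3g correlated at Pearson r = 0.977 over the 6 arrays, Reg3a and Reg3b at 0.97, Reg1 and Reg3b at 0.964, and Reg1 and Reg3g at 0.878. Reg4 correlated with the 4 others at 0.541 to 0.798. Over the values as deposited, Reg3a and Reg4 correlated at -0.808. These coefficients describe 6 arrays of 3 gates, and with 2 arrays a gate each gate gives only 1 independent deviation. The within-gate coefficients therefore restate the replicate differences above. They must be positive for any genes with replicate 1 higher in every gate, and are no separate result.

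The genes most like each Reg gene were found as those with the smallest root mean square difference over the 6 arrays after centring, among 12330 genes above background. For Reg1 they were Alpi (0.25 on the log2 scale, Pearson r = 0.99), the nuclear envelope gene Syne2 (0.45), the glutathione transferase gene Gstm3 (0.58) and the alkaline phosphatase gene Akp3 (0.60). For Reg3a they were the carbonic anhydrase gene Car9 (0.40), the hexokinase-like gene Hkdc1 (0.41), the aminopeptidase gene Enpep (0.42) and the carboxylesterase gene Ces2e (0.42). For Reg3b they were the folate transporter gene Slc46a1 (0.21), Gstm2 (0.26), Mal2 (0.28) and Apool (0.30), and for Reg3g Glo1 (0.31), Fuca2 (0.32), Gcn1 (0.34) and Sirt4 (0.36). Reg4 had no gene as close: Pla2g2f (0.82), the Paneth ribonuclease gene Ang4 (0.86), Tm4sf4 (0.88) and the colipase gene Clps (0.89) came nearest. Correlations of all 20 genes with their Reg gene lay between 0.91 and 0.991, over 6 arrays that share gates and replicate numbers.

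**Figure D5:**
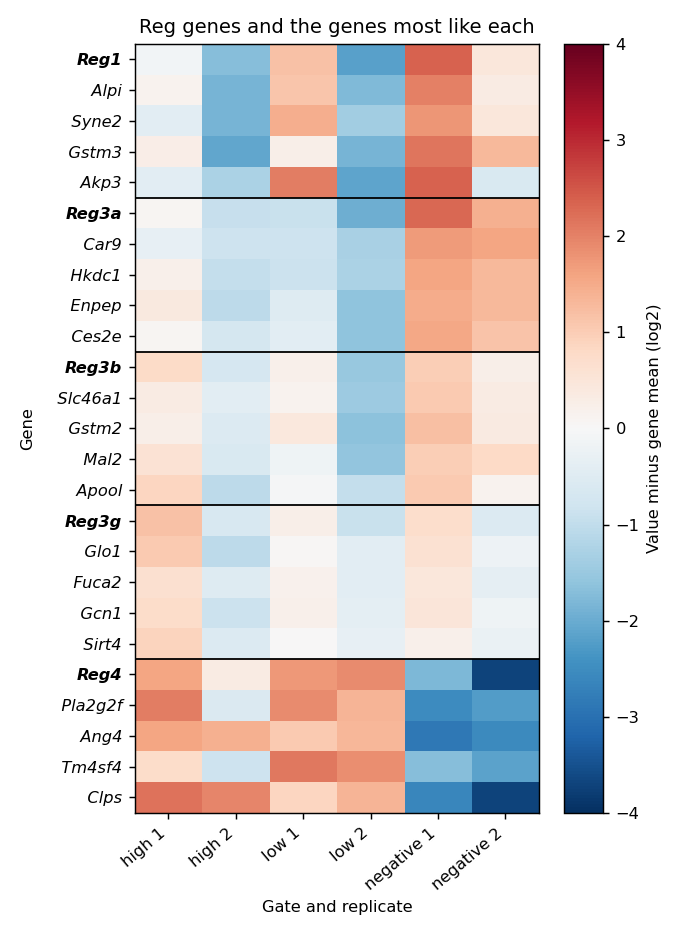
Values of each Reg gene (bold) and its 4 most similar genes (rows) on the 6 arrays (columns), in log2 units from each gene's own mean (colour scale). The rows of Reg1 and Alpi differ by a root mean square of 0.25, and those of Reg4 and Pla2g2f by 0.82.

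The other Reg genes of the cluster were dim. Reg3d lay below background on all 6 arrays, between 3.19 and 3.49. Reg2 read 3.71 and 3.38 on the high arrays, 3.75 and 3.85 on the low arrays, and 4.26 and 4.38 on the negative arrays, of which only the negative ones were above background. Neither was called in any comparison (limma, 0 of 2), and 1 of 2, Reg2, had an unadjusted p under 0.05 in both comparisons with the negative gate. In high against negative cells 1 of 2 was called without high replicate 1. Extl3, proposed as a receptor of Reg proteins, read 5.40 and 6.52 in the high gate, 5.21 and 5.25 in the low gate, and 5.2 and 4.60 in the negative gate, with no called difference (adjusted p from 0.173 to 0.806) except in high against negative cells without high replicate 1, where it was called.

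Genes of the pathways that act on Reg transcription are given by list, beside 5.96% of all genes called in low against negative cells, 4.71% in high against negative cells and 4.91% in high against low cells. Of 19 measured genes of interleukin-22 and gp130 signalling, 1 rose in low cells, the kinase gene Jak1, by 0.96 ± 0.19 (SE; limma adjusted p = 0.032). None was called in high against negative cells (0 of 19 in limma, 3 with an unadjusted p under 0.05) or in high against low cells (0 and 7). Without high replicate 2 the count was 1 in high against negative cells, and without high replicate 1 it was 3 in high against low cells. A trended prior gave 1 in each of these comparisons, and centring the arrays on their medians gave 1 in high against low cells. The Jak1 call was lost without negative replicate 1 (adjusted p = 0.177), negative replicate 2 (adjusted p = 0.202), low replicate 1 (adjusted p = 0.123) or low replicate 2 (adjusted p = 0.177) and with a trended prior (adjusted p = 0.0684). Of these, Il22ra1, the epithelial receptor chain for interleukin-22, read 9.83 and 9.37 in the high gate, 8.37 and 9.24 in the low gate, and 8.75 and 9.03 in the negative gate. Stat3 read 7.81 and 7.06, 8.13 and 8.54, and 8.03 and 7.77 in the same order of gates, and its differences were not called (adjusted p from 0.146 to 0.559). The median difference of the list was 0.33 in low against negative cells, beside -0.03 over all genes.

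Of 21 epithelial defence products linked to STAT3, 1 rose and 3 fell in low against negative cells. The 3 were Duoxa2 and Duox2, which form the epithelial hydrogen peroxide-producing oxidase, and Dmbt1, a secreted scavenger receptor. Duoxa2 fell by 1.70 ± 0.19 (SE; limma adjusted p = 0.00506), Duox2 fell by 1.54 ± 0.22 (adjusted p = 0.0125) and Dmbt1 fell by 1.84 ± 0.31 (adjusted p = 0.0203). Against negative cells, high cells had Duoxa2 lower: it fell by 1.3 ± 0.19 (adjusted p = 0.0197) and Pla2g2a, a Paneth phospholipase gene, rose by 4.04 ± 0.50 (adjusted p = 0.0155). Between high and low cells 0 of 21 were called in limma, and 5 had an unadjusted p under 0.05. The called count there was 1 without low replicate 2 and 3 without high replicate 2. Like Reg3a, Duoxa2, Duox2 and Dmbt1 were highest on both negative arrays, whereas the acute-phase genes Saa1 and Saa3 and the calprotectin genes S100a8 and S100a9 were at background in every gate. Leaving out either negative array left 0 called genes of the list in both comparisons with negative cells. In low against negative cells it held 2 without low replicate 1 and 1 without low replicate 2, and in high against negative cells 4 without high replicate 1.

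Of 21 genes of the MyD88 and NOD pathways, 1 rose and 1 fell in low against negative cells. Tnfaip3, a brake on NF-kB signalling, rose by 1.11 ± 0.20 (SE; limma adjusted p = 0.025), and Tlr1, not above background in low cells, was lower by at least 0.51 (adjusted p = 0.0344). Tnfaip3 in high against low cells fell by 1.49 ± 0.20 (adjusted p = 0.00992) and Tab2 fell by 1.74 ± 0.25 (adjusted p = 0.0134). For high against negative cells 0 of 21 were called in limma (1 without either high array), and 6 had an unadjusted p under 0.05. Without any single negative or low array the list held 0 called genes in low against negative cells, and it held 4 without either high array. For high against low cells it held 0 without low replicate 1, 1 without low replicate 2 and 4 without high replicate 1.

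Several other secreted antimicrobial and lectin genes had called increases. Of 17 measured, 6 rose and 1 fell in low against negative cells, and 5 rose and 1 fell in high against negative cells. The lists share genes, so their counts are not independent. Ang4, Itln1, Mmp7 and Lyz1, among those that rose, are also in the Paneth list. Dmbt1, which fell in low cells, is also in the STAT3-linked list, and that list shares Pla2g2a with the Paneth list. Ang4 rose by 3.89 ± 0.21 in low cells (SE; limma adjusted p = 0.000455) and 4.21 ± 0.21 in high cells (adjusted p = 0.000942). The intelectin gene Itln1 rose by 2.87 ± 0.23 and 3.04 ± 0.23 (adjusted p = 0.00189 and 0.00534), and the matrix protease gene Mmp7, which processes defensins, by 2.46 ± 0.26 and 3.31 ± 0.26 (adjusted p = 0.00433 and 0.00543). The median over the list was -0.16 in low against negative cells and -0.0045 in high against negative cells, beside -0.03 and 0.10 over all genes. Between high and low cells 0 of 17 were called in limma (1 without high replicate 1), and 2 had an unadjusted p under 0.05. The call of Itln1 in high against negative cells did not hold when negative replicate 1 (adjusted p = 0.0855) or its partner (adjusted p = 0.0751) was dropped, nor did that of Mmp7 without negative replicate 2 (adjusted p = 0.0628). Dropping negative replicate 1 left 4 called genes in low and 2 in high cells, and dropping negative replicate 2 left 3 and 1. Dropping low replicate 2 left 4 in low cells. In high cells, 4 were called with high replicate 1 alone and 9 with high replicate 2 alone.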

How the data were processed

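Expression was measured on 6 microarrays of sorted mouse crypt cells, whose titles gave the gate and the replicate number. The deposited values are on the log2 scale. The authors used RMA in Affymetrix Expression Console (version 1.3.0.187), as the submitters' processing notes list. Its options, like a genome build, are not given in the sources used. RMA summarises probes after quantile normalization, and neither scanner files nor detection calls were used. For 12 further samples the table used has empty columns.

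Of 35556 probe sets, 21789 had a single gene symbol, 1621 several, and 12146 were not listed in the platform annotation. Symbols were updated through 21698 matching gene IDs of the GRCm38.p6 table, and 91 kept the array's symbol. For 999 genes with several probe sets the brightest was used, which left 19938 genes, 12880 of them above background on average. The test was limma's moderated one (version 3.58.1, R 4.3.3, functions lmFit and eBayes), fitted once to 3 group means with 3 residual degrees of freedom, two-sided p-values and Benjamini-Hochberg adjustment over all 19938 genes. Standard errors and 95% intervals are limma's. The script was tested on simulated data. Promoters were aligned with Biopython 1.88, and tables were made with Python 3.11.15.

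The Reg genes, the lists and the tests were chosen with earlier results of these data known. Named genes were the 5 members, the 4 genes most like each, and up to 3 called genes with the smallest adjusted p of each pathway list. Markers named beside the Reg values, Reg2, Reg3d, Extl3, Il22ra1, Stat3, the sex-linked genes and those of the closing section are exceptions to it, picked with their values in view. Alternatives changed the scaling, the threshold, the background level, the probe set rule, the prior of the fit, array weights and the arrays fitted, dropped dim genes or single arrays, or added a replicate block.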

Additional observations from a re-analysis of the deposited data

How the results depend on the processing

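Differences are limma's with adjusted p-values. Called Reg genes in low against negative cells numbered 0 to 2 over the fits without 1 array and 0 at an adjusted p under 0.01, and 2 in the other alternatives. In high against negative cells they numbered 0 to 1 without 1 array, 2 with a trended prior, among genes above background or at an adjusted p under 0.1, 3 with the replicate block, and 0 on 4 arrays, with array weights or at an adjusted p under 0.01. In high against low cells they numbered 0 without any 1 array and 1 with the replicate block.

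Over all genes, calls in low against negative cells (1188) numbered 187 to 1761 without 1 array, 2150 with array weights, 353 at an adjusted p under 0.01 and 1914 under 0.1. In high against negative cells (939) they numbered 13 to 1919 without 1 array, 561 on 4 arrays, 621 after quantile normalization, 620 with array weights, 61 under 0.01 and 1817 under 0.1. In high against low cells (978) they numbered 381 to 1739 without 1 array, 499 on 4 arrays, 607 with array weights, 319 under 0.01 and 1771 under 0.1. Quantile normalization gave 324 higher and 297 lower calls in high against negative cells (272 and 667 as deposited), and 326 and 616 in high against low cells (202 and 776).

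Some uncalled differences changed sign without 1 array. Reg3g ranged from -1.04 to 0.22 for low minus negative, -0.71 to 1.09 for high minus negative and -0.31 to 1.5 for high minus low. Reg3b ranged from -1.27 to 0.14 for high minus negative and -0.15 to 1.56 for high minus low, and Reg1 from -2.07 to 1.27 for high minus low. With the background level at the 99th percentile, 1 member difference was known only as a bound, and at the 90th, 0.

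Groups share replicate numbers, but the labels do not say that they mark shared animals, and the numbers were not taken to pair the arrays. The differences between replicates 1 and 2 correlated between gates at 0.0788 to 0.103 across all genes. As dim genes are included, these values cannot decide whether the arrays are paired. The main Reg results depend on this choice. With the replicate block the SE of Reg3a was 0.19, against 0.49 without it, and that of Reg1 was 0.42, against 1.14. With the block, called genes numbered 1298, 1065 and 965 for low minus negative, high minus negative and high minus low. Under it Reg3a had adjusted p = 0.00105 for low minus negative, 0.00982 for high minus negative and 0.0404 for high minus low, Reg1 had 0.0354 in high against negative and 0.0516 in low against negative cells, Reg3b had 0.0502 in low against negative cells, and Reg4 had 0.00582 in low and 0.0179 in high against negative cells. The cause of these changes was not tested.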

Other observations

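Several single genes differed between replicate numbers. They were chosen after their values were seen, form no fixed list, and are given as values with no test. Gkn1, a secreted product of the gastric surface epithelium, read 6.66 and 5.70 on high replicates 1 and 2, 6.29 and 5.38 on the low replicates, and 8.44 and 6.30 on the negative replicates. Tff2, a trefoil peptide of gastric mucous cells and duodenal glands, read 6.00 and 4.76 in the high gate, 7.58 and 6.80 in the low gate, and 8.11 and 4.91 in the negative gate. Pdx1, a transcription factor of pancreas, antrum and duodenum, read 4.88 and 4.14, 6.70 and 5.01, and 5.84 and 4.87 in the same order. Gkn2 was higher on replicate 2 in the high gate and on replicate 1 in the other gates, with 6.56 and 8.87 in the high gate, 6.23 and 4.53 in the low gate, and 8.79 and 3.8 in the negative gate.

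Other genes ran the opposite way. Ceacam10 read 7.80 and 10.23 in the high gate, 9.19 and 10.25 in the low gate, and 7.81 and 9.01 in the negative gate, which put it last of the 12331 genes ordered by their mean excess in replicate 1. Ccr9, a chemokine receptor of gut-homing lymphocytes, read 3.38 and 4.37 in the high gate, 5.37 and 7.0 in the low gate, and 4.95 and 5.99 in the negative gate.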
